A study of Mus musculus with 28 samples.

Results

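RNA-seq of C10 cells at 48h of induction was compared with RNA-seq of the same cells at 12h, the last interval sampled in a time course of Pre-B cells turning into macrophages. The comparison used 6 of the 28 samples of the series, 3 libraries at each of the 2 time points, and the 8719 of 55450 genes whose mean TPM (a length-corrected share of all transcripts in a library) over those 6 libraries was at least 1. Kbtbd4 and Zfp282 lay just inside that limit at a mean TPM of 1.00, and Ing5 and Ccnq lay just outside it at 0.998. C10 cells are a HAFTL derived mouse Pre-B cell line, and all libraries carry the CEBPalpha-ER transgene, a fusion of the myeloid transcription factor C/EBPα with the estrogen receptor that enters the nucleus when β-estradiol is present. Cells at 12h and 48h had received 100 nM β-estradiol, 10 nM IL-3 and CSF-1, whereas cells at 0h were uninduced. The libraries of each time point are labelled as biological replicates 1 to 3. Because the series rests on 1 engineered line, p-values measure the spread between these libraries and not between independent lines.

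Macrophages are phagocytes that take up particles through Fc, complement and scavenger receptors, break them down in acidic lysosomes and recruit other leukocytes with chemokines. They sense nucleic acids and bacterial products through Toll-like receptors, and interferon signalling through STAT and IRF proteins switches on a large antiviral gene set in them. C/EBPα acts with PU.1 to install this programme and to stop proliferation, and the genes of cell division are among those that fall silent when a precursor leaves the cell cycle.

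All levels are given as scaled TPM, the deposited TPM divided by a median-of-ratios factor per library, because 2 genes of the ribosomal RNA locus, CT010467.1 and AY036118, took 72.8 to 79.5% of all TPM at 12h and 75.7 to 82.9% at 48h. The factors were 1.07 to 1.35 at 12h and 0.627 to 0.752 at 48h. TPM keep no read depth, so the depth behind each value is unknown, and a gene listed at 0 may have failed estimation: the mitochondrial gene mt-Co3 was listed at 0.478, 242 and 274 in the 12h libraries and at 0.414, 0.627 and 157 in the 48h libraries. The replicate 3 libraries stood apart on the second principal component of the 12 libraries, which held 10.6% of the variance, with −45.2 at 48h against 43.8 and 36.0 for replicates 1 and 2.

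Cell type markers followed the labels in part. The summed level of 9 macrophage markers was 215 to 242 at 12h and 303 to 357 at 48h, against 3.98 to 4.93 at 0h. Lyz2 alone held most of the 12h sum. Adgre1, which encodes F4/80, was listed at 0, 0 and 0.386 in the 48h libraries and Mertk at 0 in all 6, so these defining markers of tissue macrophages were at or near 0. The 8 Pre-B cell markers summed to 280 to 301 at 0h, 47.0 to 51.0 at 12h and 22.1 to 28.1 at 48h. Of 10 neutrophil markers, whose sum was 14.3 to 15.9 at 12h and 42.5 to 62.9 at 48h, Mmp8 held most of the 48h level, and S100a9, Ltf and Retnlg were listed at 0 in all 6 libraries; the part of other cell types in the results was not tested. All 6 mast cell and basophil markers were listed at 0, the T and NK cell markers summed to at most 0.309, the 7 erythroid and megakaryocyte markers to at most 1.22, and the 7 dendritic cell markers to at most 3.08. The 7 fibroblast and endothelial markers summed to 4.48 to 5.17 at 12h and 9.24 to 10.3 at 48h, nearly all of it Pecam1, with Col1a1, Col1a2, Dcn, Pdgfra and Kdr listed at 0. In these bulk libraries a smaller number of cells of a type and less RNA per cell cannot be told apart.

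Between 12h and 48h, 851 genes rose and 888 fell, which is 9.76% and 10.2% of the genes tested (limma; the call required a change of more than 1 on the log2 scale and a Benjamini-Hochberg adjusted p below 0.05). Late gains included interferon-inducible genes, phagocytic receptors, lysosomal enzymes, chemokines and metalloproteinases, and late losses included genes of mitosis, DNA replication, histones, cholesterol synthesis and glycolysis. The median late gain was 1.61 and the median late loss −1.46 on the log2 scale, against −0.04 over all genes tested. The 3 libraries of each time point did not overlap for 834 gains and 850 losses, against 45.0% of all genes tested. Calls and overlap were read from the same values, so the excess among called genes follows from the selection. Protein-coding genes made up 87.3% of the gains and 91.1% of the losses, beside 87.6% of all genes tested. Since the filter was on the mean of both time points, 208 gains passed it with a mean scaled TPM under 1 at 12h and 336 losses with a mean under 1 at 48h. The balance of directions depended on the scaling: 48.9% of called genes rose under median-of-ratios scaling, against 31.0% (576 rose, 1284 fell) after rescaling without the 20 most abundant genes and 11.3% (375 rose, 2939 fell) in the TPM as deposited, where the median of all genes moved to −0.24 and −0.76. All changes below are therefore relative to the median gene.

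**Figure D1:**
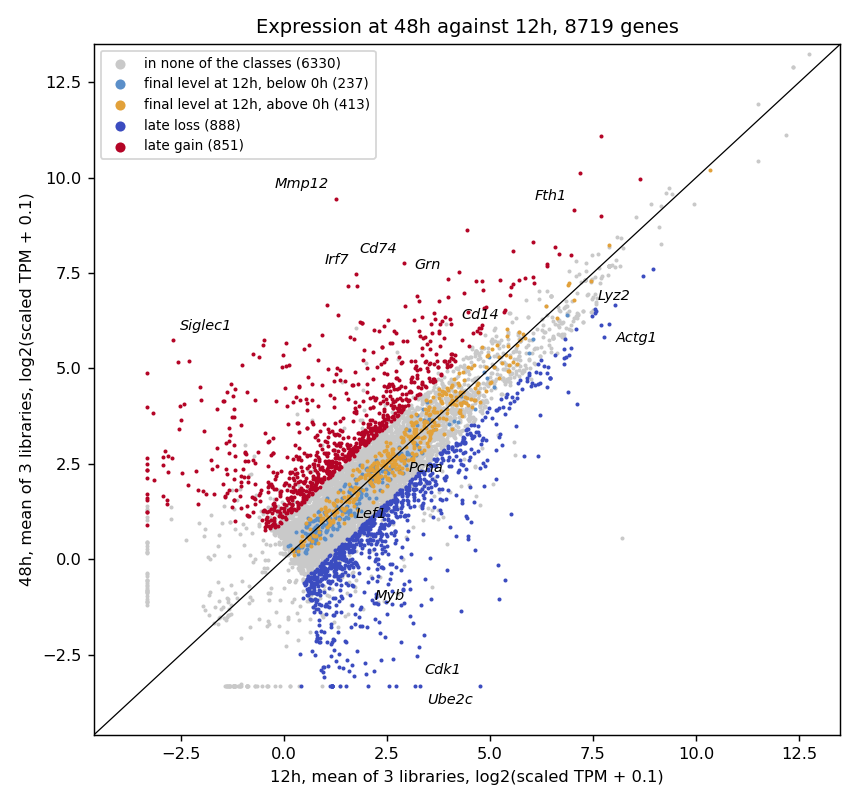
Mean log2(scaled TPM + 0.1) of the 3 libraries at 48h (vertical) against 12h (horizontal) for the 8719 genes tested, with the line of equal levels. The 851 late gains lie above the line and the 888 late losses below it, and genes in the lowest rows and columns of points were listed at 0 in all 3 libraries of a time point.

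The 10 largest late gains were listed at low levels or at 0 at 12h. Siglec1, the sialic acid-binding receptor CD169 of macrophages (chr2:131069220-131086765, GRCm38), was at 0.0469, 0.018 and 0.118 scaled TPM in the 12h libraries and at 47.2, 49.5 and 65.7 in the 48h libraries. No 12h library came near a 48h library, and the log2 fold change was 8.43 ± 0.46 (SE; limma, adjusted p = 4.3e-07). Mmp12, the macrophage elastase (chr9:7344381-7369499), was at 2.55, 2.35 and 2.09 at 12h and 781, 802 and 544 at 48h. It was among the most abundant of these transcripts, and replicate 3 was the lowest 48h library (log2 fold change 8.17 ± 0.2, limma adjusted p = 1.2e-09). Ly6a, a GPI-anchored surface protein (chr15:74994877-74998031), was listed at 0 in every 12h library and at 32, 27.1 and 29.1 at 48h (limma, adjusted p = 4.9e-07). Apoc2, the apolipoprotein that activates lipoprotein lipase, was at 0, 0.216 and 0.17 and then 28.7, 36.4 and 46.8 (log2 fold change 7.49 ± 0.49). Fold changes of genes this low at 12h depend on the pseudocount: for Siglec1 the log2 fold change was 5.69 with a pseudocount of 1 and 9.83 with 0.01, and for Apoc2 5.06 and 8.95, whereas for Mmp12 it was 7.72 and 8.23. Values at the first 3 time points were alike for these genes in that none exceeded a mean of 2.33.

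The other 6 of the 10 largest gains are all known as interferon-inducible. Whether Siglec1, Mmp12, Ly6a and Apoc2 share that trait was not assessed, so 6 is not a full count of it. Tgtp2 and Tgtp1, neighbouring T cell-specific GTPases on chromosome 11 whose near-identical sequences may share reads, were both late gains. Tgtp2 was at 0, 0.377 and 0 at 12h and at 38.5, 35.6 and 33.8 at 48h, and Tgtp1 was at 0.234, 0 and 0.0591 and then at 18.9, 16.3 and 13.4. Ifit1bl1, a relative of the RNA-binding IFIT proteins, rose from 0, 0 and 0.0369 to 15, 16.4 and 11.8. Both the GTPase pair and Ifit1bl1 were listed at 0 in at least 1 library at 12h and in none at 48h. Rtp4, a receptor transporter with antiviral activity, rose by 6.54 ± 0.44 on the log2 scale, Rsad2 (viperin, an antiviral enzyme) by 6.48 ± 0.36 and Ifi207, a DNA sensor-like protein of the Ifi200 family, by 6.23 ± 0.3, with limma adjusted p of 1.7e-06, 5e-07 and 2e-07. Their 48h levels were 27.4, 26.6 and 15.9 for Rtp4, 15.7, 17.1 and 17 for Rsad2 and 62.9, 60.7 and 40.1 for Ifi207, and at 12h none of the 3 genes passed 0.844 in any library.

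**Figure D2:**
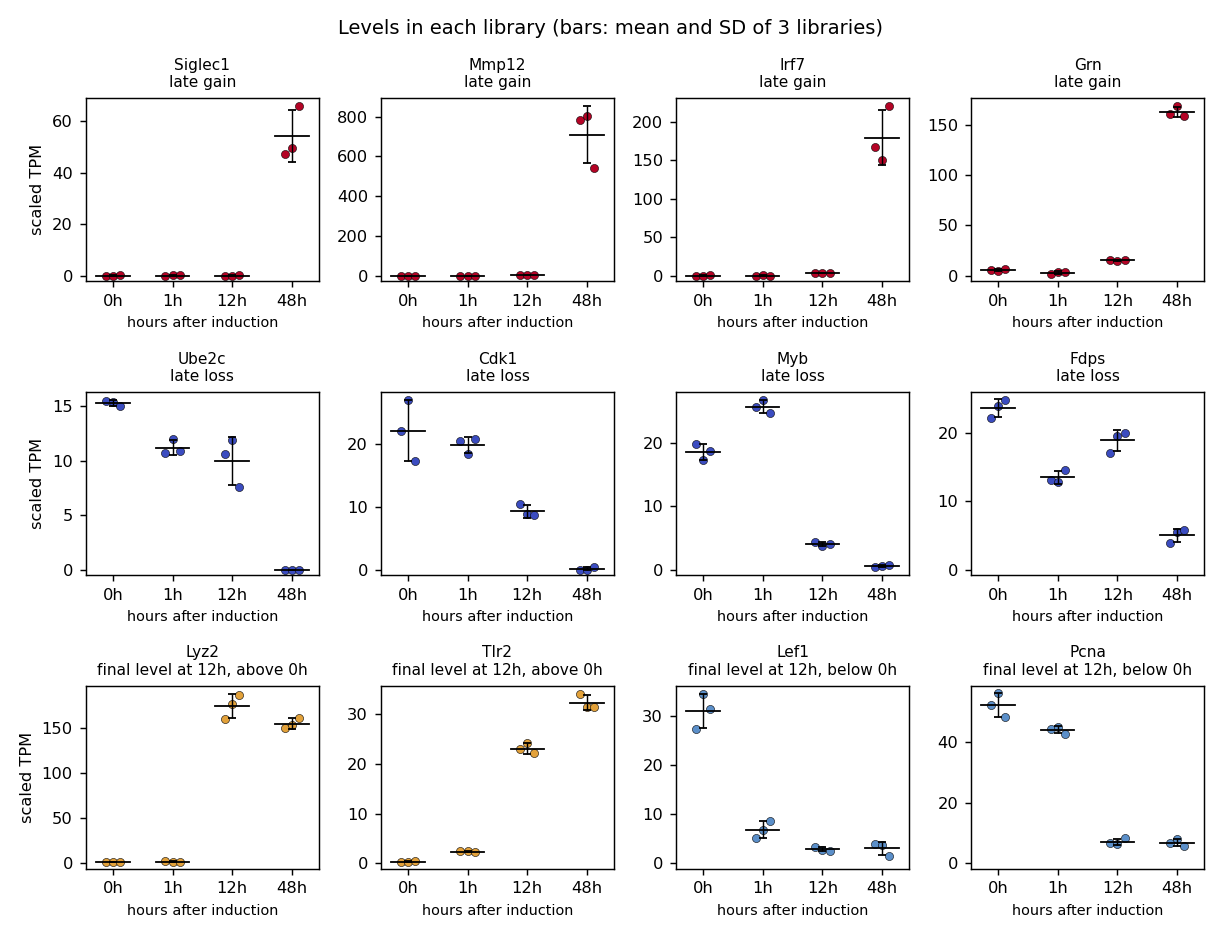
Scaled TPM of 12 genes in each library at 0h, 1h, 12h and 48h, with the mean and SD of the 3 libraries as bars. Siglec1, Mmp12, Irf7 and Grn are highest at 48h, Ube2c, Cdk1, Myb and Fdps are lowest at 48h, and Lyz2, Tlr2, Lef1 and Pcna are near their 48h level at 12h.

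Interferon-inducible genes rose almost throughout. Of 40 listed, 36 passed the filter and 35 of these rose, with a median log2 fold change of 3.62. Ifi35 was the member that missed the threshold, at 3.04 ± 0.495 at 12h and 6.02 ± 3.35 at 48h (SD, n = 3). Transcription factors of the pathway were included: Irf7 was at 3.22, 3.36 and 3.31 at 12h and at 168, 151 and 220.2 at 48h (log2 fold change 5.71 ± 0.58, limma adjusted p = 2.9e-05), and Stat2 rose by 3.11 ± 0.18 to 76.9 ± 7.95. Replicate 3 was the highest 48h library of Irf7. Among effectors, Mx1, a GTPase that blocks virus replication, was at 0.366, 0.647 and 0.739 and then 40.5, 36.3 and 41.8, and Ifit3 at 0.534, 0.431 and 0.539 and then 41, 40.6 and 41.7. Ifit3 and Ifit3b are near-identical copies, and the split of reads between them is uncertain. The neighbouring genes Gbp4 and Gbp9 overlap, so that their values (7.51 and 13.3 at 48h) cannot be fully separated. With TPM as deposited 34 of the 36 still rose and none fell. The receptor subunit genes Ifnar2 and Ifngr1 rose by 1.52 ± 0.23 and 1.45 ± 0.26, while Ifnar1 and Ifngr2 differed by 0.8 and 0.89, under the size needed for a call. Ifnar2 and Ifngr1 belong to the list of receptors for growth factors and cytokines, in which no gene rose in TPM as deposited.

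Of 33 RefSeq promoters (250 bases before to 50 after the start, GRCm38.p6) found for 27 of the 36 genes, 21 (63.6%) held TTTCNNTTT, the core of the interferon-stimulated response element, on either strand. The motif occurred in 19.6% of promoters of late gains, 9.08% of late losses, 8.72% of all genes tested and 10.6% of all 32851 promoters. The stretches below are shown because they lie just upstream of members with large gains, and the capitals mark the motif.
Rsad2 (chr12:26456526-26456585, minus strand): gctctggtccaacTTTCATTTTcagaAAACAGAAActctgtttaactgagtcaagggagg
Ifit3 (chr19:34583381-34583440, plus strand): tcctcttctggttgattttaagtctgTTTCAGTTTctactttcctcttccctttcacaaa
Ifit3b (chr19:34607777-34607836, plus strand): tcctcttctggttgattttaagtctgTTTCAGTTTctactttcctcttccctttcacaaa
Ifit1 (chr19:34640778-34640837, plus strand): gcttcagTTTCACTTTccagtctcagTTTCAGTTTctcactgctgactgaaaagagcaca
The Ifit3 and Ifit3b stretches were identical over all 60 bases, and the stretches of Rsad2 and Ifit1 each held 2 matches. A match is a description of letters and shows no binding.

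Receptors for particle uptake also rose. All 5 Fc receptor genes that passed the filter rose (median 3.8; 4 of 5 in TPM as deposited). Fcgr4, an activating IgG receptor, was at 0.0656, 0 and 0.207 and then at 9.43, 10.4 and 12, and its signalling chain Fcer1g at 0.703, 0.359 and 0.547 and then 18.3, 17.1 and 18.3. Fcgr3 and the high-affinity receptor Fcgr1 were already above 0h at 12h, with 4.48 ± 0.129 and 2.48 ± 0.311 against 0.042 and 0.0613, and rose again to 63.7 ± 2.32 and 31.3 ± 4.39. Of 6 tested complement genes 4 rose: C3ar1, the C3a receptor, from 0.806, 0.512 and 0.547 to 50.5, 54.5 and 43, the positive regulator properdin (Cfp) by 5.06 ± 0.25, the CR3 integrin chain Itgam by 4.56 ± 0.36 and C5ar1 by 1.96 ± 0.36. In TPM as deposited 4 of them rose and 1 of the other 2 fell.

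Scavenger receptors moved both ways. Of 12 tested, 8 rose and 2 fell, with a median of 1.24; in TPM as deposited 4 rose and 3 fell, and 5 rose and 2 fell without replicate 3 of all time points or after rescaling without the 20 most abundant genes. Cd36, which binds oxidised lipoproteins, was at 0.131, 0.341 and 0.665 at 12h and at 21.9, 21.9 and 15.4 at 48h. Msr1 was at 0.131, 0 and 0 and then 4.29, 5.6 and 6.82, and Axl, a receptor for apoptotic cells, was listed at 0 in every 12h library and at 4.02, 1.67 and 4.71 at 48h. Clec7a, the β-glucan receptor dectin-1, rose by 2.73 ± 0.25 to 53.3 ± 7.82. The 2 that fell had been higher at 12h than at 0h: Olr1, the LOX-1 receptor, was at 2.86, 1.3 and 1.2 at 12h and 0.0478, 0.112 and 0.346 at 48h, and the HDL receptor Scarb1 was at 9.23 ± 1.16, 29.9 ± 3.8 and 8.58 ± 0.945 at 0h, 12h and 48h. Marco, Cd163, Timd4 and Mertk were listed at 0 in all 6 libraries.

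Some genes of degradation rose. Of 30 tested genes for lysosomal hydrolases and membrane proteins 19 rose and none fell, with a median of 1.14; in TPM as deposited 8 rose and 3 fell. Grn, the precursor of lysosomal granulins, was at 15.8, 15 and 16 and then 161, 169 and 159, the macrosialin gene Cd68 at 2.96, 2.2 and 2.36 and then 24.2, 25.2 and 28.4, and the cholesterol carrier Npc2 at 7.96, 9.32 and 11.9 and then 57.1, 57.8 and 74. The libraries of 12h and 48h did not overlap for 25 of the 30 genes, against 45.0% of all genes tested. Among cathepsins and legumain 7 of 9 tested genes rose (median 1.62; 4 rose and none fell in TPM as deposited), led by the asparaginyl protease Lgmn with 3.19 ± 0.12, Ctss with 3.17 ± 0.14 and Ctsb with 2.59 ± 0.21. Lgmn was at 9.28 ± 0.501 at 0h, 3.21 ± 0.47 at 12h and 29.96 ± 0.866 at 48h, so its 12h level was the lowest of the 3. Of 17 tested subunits of the vacuolar proton pump, which acidifies lysosomes, 4 rose under median-of-ratios scaling, 2 without 12h replicate 1, and none in TPM as deposited. Atp6v0a1 was the largest of these at 46.6, 53.7 and 40.7 and then 156, 156 and 132.

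The E-box CACGTGAC, known from lysosomal genes, occurred in 5 of 25 promoters (20%) of the lysosomal list and in 3 of 9 (33.3%) of the cathepsin list, against 4.66% of promoters of all genes tested and 4.43% of promoters of late gains. It was not particular to lists that rose. It occurred in 3 of 19 promoters (15.8%) for cholesterol synthesis, 3 of 23 (13.0%) for DNA replication, 2 of 16 (12.5%) for the proton pump and 0 of 25 for glycolysis. Those of Gla and Lamp1, which rose by 2.3 ± 0.24 and 1.9 ± 0.13 on the log2 scale, are shown as examples with the motif in capitals.
Gla (chrX:134601168-134601227, minus strand): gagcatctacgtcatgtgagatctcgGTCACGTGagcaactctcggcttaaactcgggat
Lamp1 (chr8:13159101-13159160, plus strand): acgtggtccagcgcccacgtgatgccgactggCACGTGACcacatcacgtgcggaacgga

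**Figure D3:**
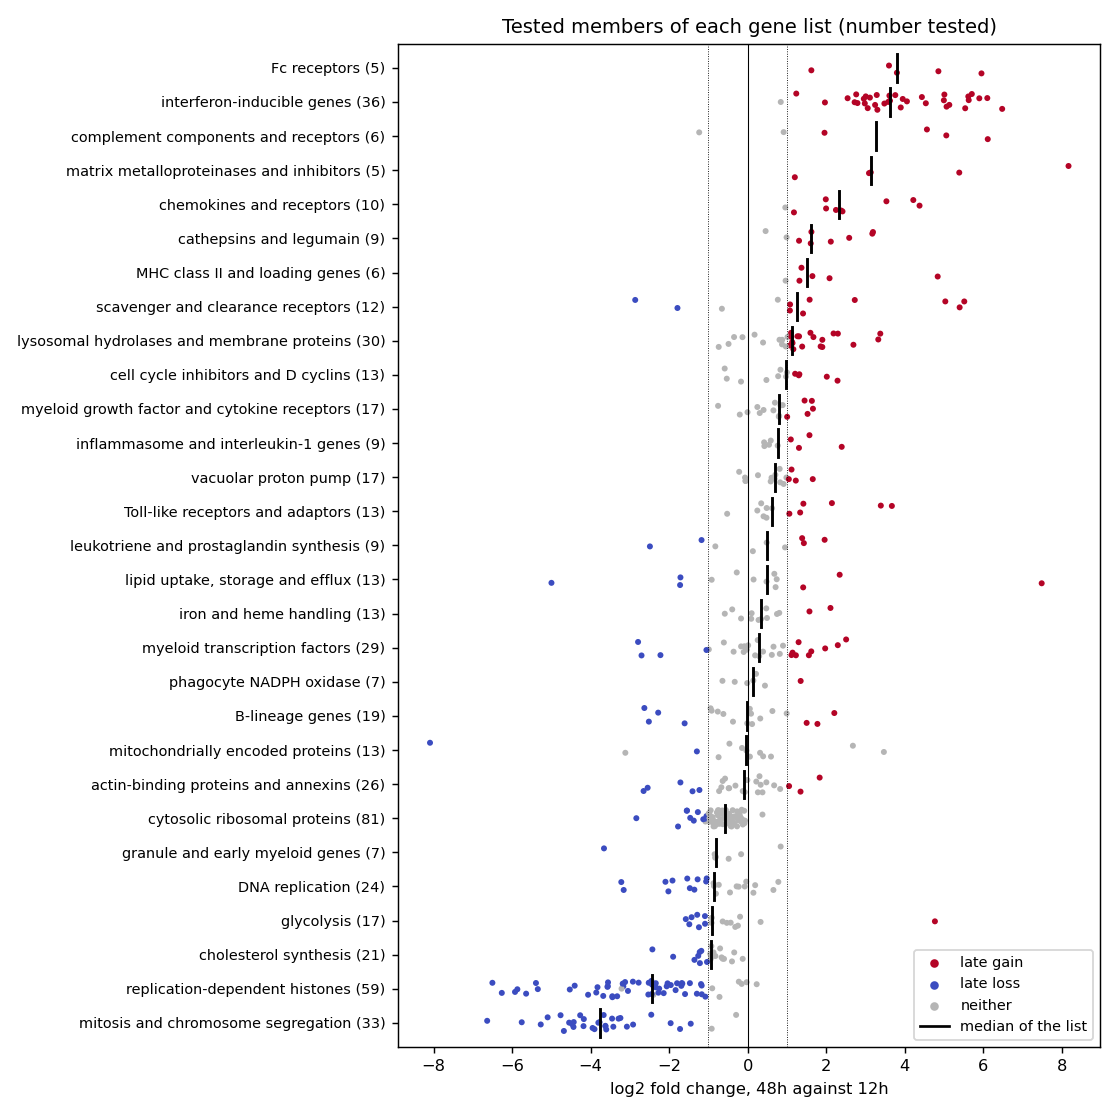
Log2 fold change at 48h against 12h of every tested member (points) of 29 gene lists, ordered by the median of the list (black bar), with the number tested in brackets. Red and blue points passed the test; Fc receptors and interferon-inducible genes have the highest medians (3.8 and 3.62) and mitosis genes the lowest (-3.77).

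Secreted factors and their receptors gained as well. Of 10 tested chemokine and chemokine receptor genes 9 rose, with a median of 2.31, and 8 rose and none fell in TPM as deposited. The monocyte receptor Ccr2 was at 2.77, 2.95 and 3.1 and then 60.9, 57.7 and 51, and Ccl6 at 3.52, 4.3 and 2.83 and then 69.9, 77.6 and 76.8. Ccl4 rose by 3.53 ± 0.5. All 5 tested metalloproteinase genes rose: beside Mmp12, the collagenase Mmp13 was at 3.49, 3.78 and 2.79 and then 159.8, 154 and 120.0, and the collagenase Mmp8 at 7.58, 5.25 and 5.08 and then 57.7, 60.3 and 37.5. Mmp19 rose by 3.13 ± 0.42 and Mmp14 by 1.2 ± 0.25; in TPM as deposited 4 rose and none fell.

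Of 9 tested inflammasome and interleukin-1 genes 4 rose. Il1b, the inflammatory cytokine, was listed at 0 in every 0h library, at 24.4, 18.3 and 24.8 at 12h and at 46.2, 52.5 and 45.3 at 48h (log2 fold change 1.1 ± 0.15, limma adjusted p = 0.00022), and its antagonist Il1rn was at 86.8, 82.9 and 79.1 and then 217, 222 and 179.5. Il18 rose by 2.39 ± 0.46 and the DNA sensor Aim2 by 1.57 ± 0.49. After rescaling without the 20 most abundant genes none of these 4 met both thresholds: the log2 fold change of Il1b was 0.91, and the adjusted p was 0.312 for Aim2, 0.219 for Il1rn and 0.083 for Il18. The call of Aim2 was also lost without 12h replicate 1 (0.084), 12h replicate 3 (0.084), 48h replicate 1 (0.089) or 48h replicate 2 (0.068), and without replicate 3 of all time points (0.114).

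Pathogen sensing and antigen presentation changed in part. Of 13 tested genes in the list of Toll-like receptors and adaptors 6 rose and none fell. Another 4 (Cd14, Tlr2, Myd88 and Irak3) were at their final level at 12h. In TPM as deposited 3 rose and 1 fell, and 3 rose without 48h replicate 1. The receptors that rose most read nucleic acids inside endosomes: Tlr9 was at 0.609, 0.395 and 0.325 and then 6.63, 5.95 and 7.49, Tlr3 at 0.141, 0.557 and 0.0887 and then 4.7, 3.28 and 2.02, and their chaperone Unc93b1 at 13.7 ± 1.3 and then 60.8 ± 7.08. Tlr7, Tlr8 and Tlr13, of the same kind, did not reach the filter and were untested, with 48h values of 1.18, 2.68 and 1.8 for Tlr7, 1.1, 2.41 and 1.02 for Tlr8 and 2.04, 2.7 and 2.26 for Tlr13, and none above 0.122 at 12h. Tlr6, a surface receptor, rose by 1.42 ± 0.43, a call lost without 12h replicate 1 (adjusted p = 0.0501), 12h replicate 2 (0.086) or 48h replicate 1 (0.088). Of 6 tested MHC class II genes 5 rose (median 1.51; 2 rose and none fell in TPM as deposited). Cd74, the invariant chain, accounted for most of the level, at 7.67, 7.41 and 7.46 and then 209, 221 and 224 (log2 fold change 4.84 ± 0.55), whereas H2-Ab1 reached 1.99 ± 0.692. H2-Ob, H2-DMa and H2-DMb1, which edit peptide loading, rose by 2.08, 1.65 and 1.37. The call of H2-DMb1 was lost without replicate 3 of all time points (adjusted p = 0.104).

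The NADPH oxidase, which makes the respiratory burst, was in part at its final level at 12h. Of its 7 subunit genes, all tested, only Cybb rose, beside 9.76% of all genes tested. Cybb went from 92.5, 82.7 and 77.3 to 213, 218 and 211 (log2 fold change 1.35 ± 0.18). Another 3, among them Ncf1 and Cyba, were at their final level at 12h. In TPM as deposited none rose and 2 fell. Of 17 receptors for growth factors and cytokines 5 rose, and none rose and 1 fell in TPM as deposited. Csf1r, the receptor for the CSF-1 given to the cells, was at 8.62, 8.6 and 8.06 and then 23.3, 25.8 and 30.5, a call lost in TPM as deposited (adjusted p = 0.067). Tgfbr2 was at 9.19, 8.55 and 8.1 and then 27.2, 28.8 and 26.4. Csf2rb, the common chain for IL-3 and GM-CSF, was at 52.8 ± 7.26 and 63.5 ± 16.3, its final level at 12h. Fth1, the iron-storing ferritin heavy chain, was at 119, 134 and 143 and then 571, 535 and 599, and the heme-degrading enzyme Hmox1 rose by 1.57 ± 0.18. They were the 2 of 13 tested iron and heme genes that rose, beside 9.76% of all genes tested, and none fell. In TPM as deposited 1 rose and 2 fell.

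Myeloid transcription factors split. Of 29 tested, 9 rose and 4 fell, beside 9.76% and 10.2% of all genes tested. Another 4 (Spi1, Stat3, Fosl2 and Id2) were at their final level at 12h. In TPM as deposited 3 rose and 7 fell. The AP-1 gene Jun was at 6.67, 7.33 and 6.41 at 12h and at 36, 38.8 and 42.6 at 48h (log2 fold change 2.51 ± 0.13), and its partner Fos was at 6.47, 7.66 and 7.6 and then 31.4, 34.3 and 42.7 (2.29 ± 0.17). Bhlhe40 was at 6.22, 7.85 and 7.24 and then 0.622, 1.02 and 1.28, and the immediate-early nuclear receptor Nr4a1 at 5.74, 5.96 and 5.82 and then 1.08, 0.934 and 0.519. Bhlhe40 and Nr4a1 fell by 2.79 and 2.7 on the log2 scale, beside 0h means of 3.71 and 1.37. Spi1, which encodes PU.1, was at 30.8 ± 0.29 and 40.5 ± 3.98, and Irf8 at 12.3 ± 1.13 and 22.4 ± 7.37, with a difference of 0.82 ± 0.23. Cebpa was at 11.9, 14.6 and 14.8 at 12h and 9.88, 9.4 and 26.2 at 48h, with replicate 3 apart. The TPM does not separate reads of the transgene from those of the endogenous gene, which the study did by sequence differences in reads not used here. Maf, Klf4 and Cebpe were listed at 0 in all 6 libraries.

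Genes of cell division fell almost throughout. Of 33 tested genes of mitosis and chromosome segregation 31 fell and none rose, with a median log2 fold change of -3.77 (-3.44 over the 22 genes above 0 in all 6 libraries). Ube2c, the ubiquitin-conjugating enzyme of the anaphase-promoting complex (chr2:164769898-164778822), was at 10.6, 11.9 and 7.55 at 12h and listed at 0 in every 48h library (limma, adjusted p = 1.2e-09). Cdk1, the mitotic kinase (chr10:69335146-69352938), was at 10.5, 8.85 and 8.64 and then 0, 0 and 0.426, with replicate 3 the 48h library above 0. Of its cyclin partners, Ccnb1 was at 5.78, 6.93 and 5.87 at 12h and at 0.0956, 0 and 0.12 at 48h, and Ccna2 was at 5.02, 4.09 and 4.23 and then 0.0637, 0.0418 and 0. The median of the list lay at 1.84, 2.08 and 2.05 on the log2 scale in the 12h libraries, at 3.09, 2.85 and 2.89 at 0h and at −1.49, −2.45 and −1.95 at 48h. On the log2 scale the greater part of the decrease thus fell between 12h and 48h. At levels as low as those at 48h this scale depends on the pseudocount, and the statement does not hold for the levels themselves. Smc4, a condensin subunit, and Spc24, a kinetochore protein, were the 2 that were not called, at -0.92 ± 0.19 and -0.29 ± 0.15. Stmn1, a tubulin-binding protein, was at 10.7, 10.03 and 8.29 and then 0, 0.153 and 0.226.

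The cell cycle homology region TTTGAA was found in 21 of 28 promoters (75.0%) of the mitosis list, and 19 of 28 (67.9%) held it together with CCAAT. The pair occurred in 4.88% of promoters of all genes tested and in 9.48% of those of late losses, while TTTGAA, with or without CCAAT, occurred in 12.3% and 17.2%. Stretches of 4 members are shown with TTTGAA, or its reverse complement, in capitals. Each lies upstream of both the RefSeq start and the first base of the gene in the annotation used for the TPM. The matches began at -71 (Cdk1), -18 (Cdc20), -23 (Top2a) and -167 (Ccnb2) from the RefSeq start. The stretch of Ccnb2 held no CCAAT on either strand.
Cdk1 (chr10:69352951-69353010, minus strand): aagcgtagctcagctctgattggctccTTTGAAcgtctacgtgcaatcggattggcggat
Cdc20 (chr4:118437353-118437412, minus strand): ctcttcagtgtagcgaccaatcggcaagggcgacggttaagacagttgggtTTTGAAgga
Top2a (chr11:99024190-99024249, minus strand): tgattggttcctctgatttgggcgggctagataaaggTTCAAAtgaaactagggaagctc
Ccnb2 (chr9:70421689-70421748, minus strand): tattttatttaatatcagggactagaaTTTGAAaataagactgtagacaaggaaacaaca
In Top2a the match lay on the opposite strand. Cdc20, Top2a and Ccnb2 fell by 4.68, 4.55 and 4.43 on the log2 scale. E2F motifs (TTTGGCGC or TTTCGCGC) were held by 7 of 23 promoters (30.4%) of the DNA replication list, against 1.57% of promoters of all genes tested.

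**Figure D4:**
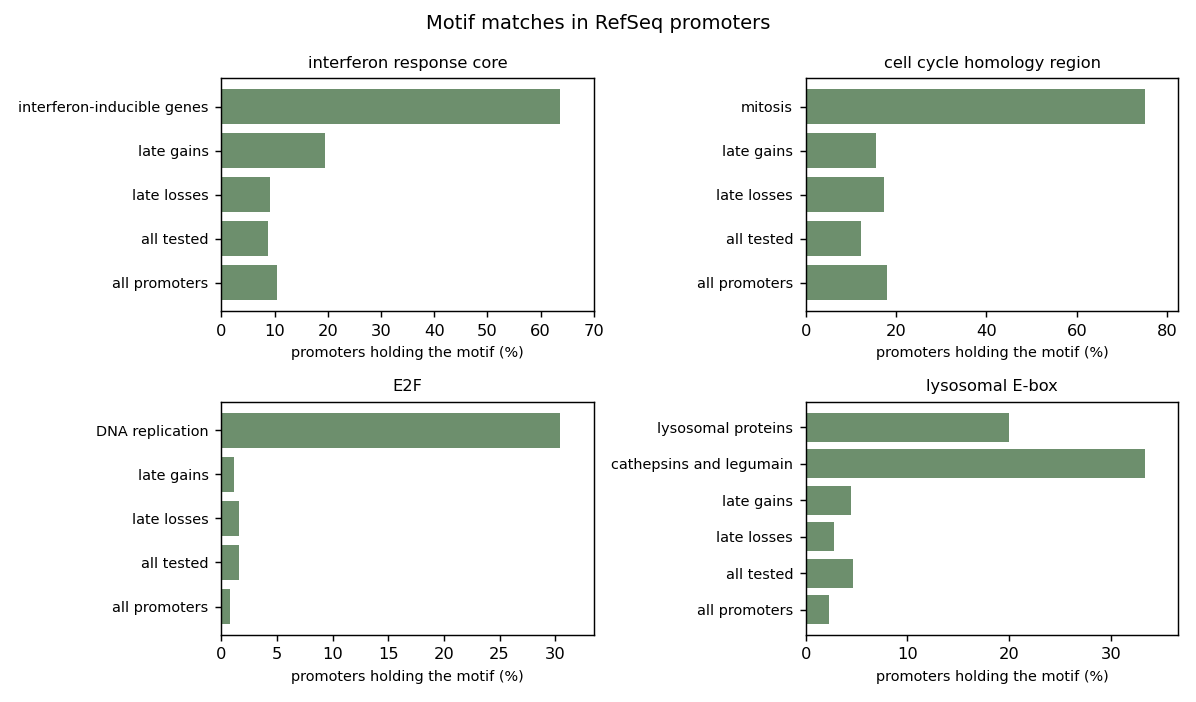
Percent of RefSeq promoters of each set that hold the interferon response core, the cell cycle homology region, an E2F motif or the lysosomal E-box on either strand. The named list has the longest bar in each panel (63.6%, 75.0% and 30.4% in the first 3; 33.3% for cathepsins in the last), and late losses as a whole lie at 9.08%, 17.2%, 1.6% and 2.8%.

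DNA replication genes had already lost most of their level by 12h. Of 40 listed, 24 passed the filter, which excludes genes that were near 0 by 12h, and 11 of these fell while 5 (Pcna, Rpa1, Prim2, Pola2 and Rfc1) were at their final level at 12h. The median of the 24 was -2.1 for 12h against 0h and -0.86 for 48h against 12h. Mcm5, a helicase subunit, was at 16.8 on average at 0h, at 2.12, 2.01 and 3.18 at 12h and at 0.223, 0.153 and 0.133 at 48h, and the nucleotide reductase subunit Rrm2 was at 3.39, 3.46 and 2.79 and then 0.0956, 0.446 and 0.372. These libraries did not overlap between 12h and 48h. Replication-dependent histone genes fell in 51 of 59 tested, with a median of -2.44. The libraries had no overlap for 51 of 59, against 45.0% of all genes tested. Hist1h2af was at 7.75, 10.9 and 8.53 and Hist1h2bm at 3.53, 6.34 and 8.37 at 12h, and both were listed at 0 in every 48h library. Hist1h2ah was at 35.6, 55.1 and 26.3 and then 0, 0.0697 and 6.68, Hist2h3c2 at 39.8, 45.1 and 39.3 and then 0.861, 0 and 3.19, Hist1h3c at 15.4, 18.9 and 25.4 and then 0, 0.572 and 0.798, and Hist1h2ai at 11.5, 14.4 and 7.06 and then 0, 1.53 and 0. Because histone genes of a class are near-identical copies that can share reads, values of single members are uncertain.

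Some genes that restrain or drive entry into the cell cycle rose. Of 13 tested cell cycle inhibitors and D cyclins 5 rose and none fell, and in TPM as deposited 2 rose and 2 fell. Ccnd1, which encodes cyclin D1 and promotes rather than restrains G1 progression, was at a mean of 19.3 at 0h, 7.44, 7.77 and 6.29 at 12h and 34.6, 34.6 and 36.6 at 48h. The antiproliferative genes Btg1 and Btg2 rose by 2.01 ± 0.24 and 1.32 ± 0.24, and the CDK inhibitor Cdkn1a (p21) was at 14, 13.6 and 12.4 and then 35.5, 34.1 and 29.4. Ccnd3, another D cyclin, was at 125 ± 9.43 at 0h and at 61.4 ± 6.1 and 42.8 ± 8.49 afterwards, its final level at 12h.

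**Figure D5:**
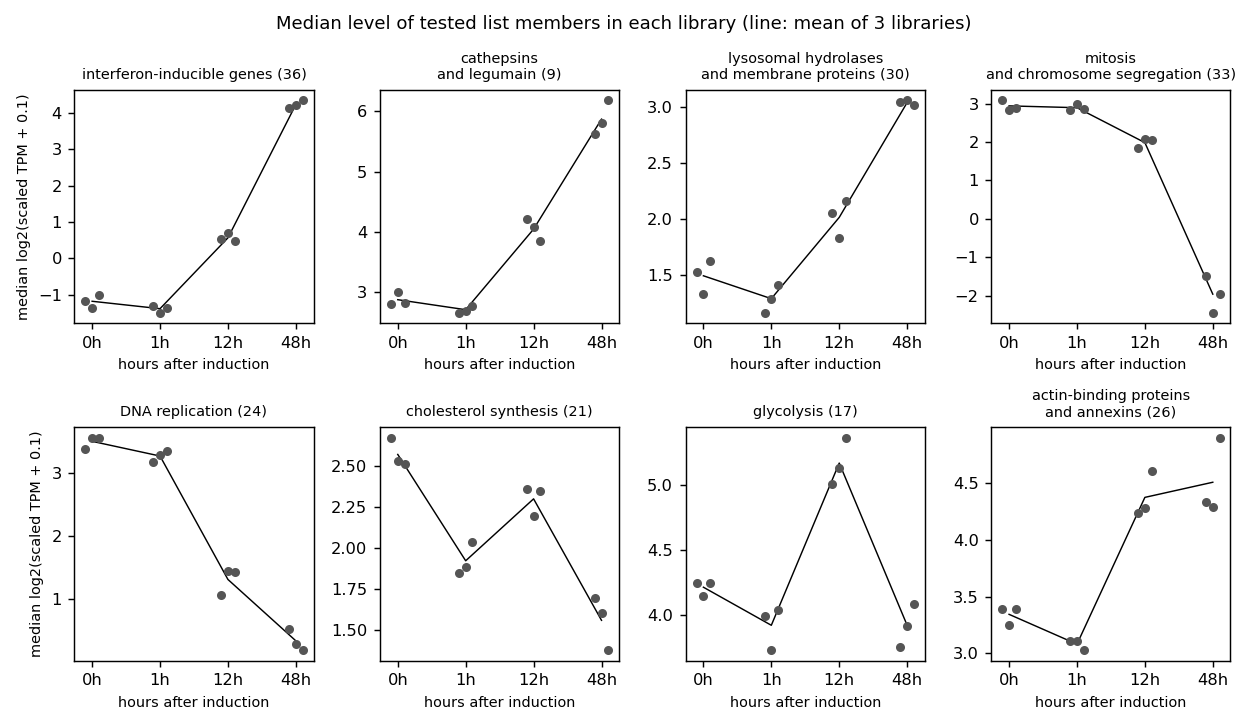
Median log2(scaled TPM + 0.1) over the tested members of 8 gene lists in each library at 0h, 1h, 12h and 48h; the line joins the means of the 3 libraries. Interferon-inducible genes stand at 0.48 to 0.69 at 12h and 4.12 to 4.35 at 48h, mitosis genes at 1.84 to 2.08 and then −2.45 to −1.49, and the glycolysis median is highest at 12h (5.0 to 5.36).

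Part of the metabolic genes fell. Of 21 tested genes of cholesterol synthesis 8 fell, none rose and all 21 had a negative log2 fold change (median -0.93). The count that fell was 20 in TPM as deposited and 13 when the 20 most abundant genes were left out of the scaling. Lss, which closes the sterol ring, was at 5.41, 4.47 and 4.63 and then 0.446, 0.683 and 1.69, and Fdps at 17.1, 19.6 and 19.98 and then 3.95, 5.46 and 5.73. Lss and Fdps did not overlap between time points, while Mvk, at 1.29, 2.07 and 4.1 and then 0.558, 0.641 and 1.45, did, and its call was lost without 12h replicate 2 (adjusted p = 0.065), 12h replicate 3 (0.12), 48h replicate 1 (0.107) or 48h replicate 2 (0.096). Hsd17b7 fell by 1.26 ± 0.33 on the log2 scale, a call lost without replicate 3 of all time points (adjusted p = 0.136). Of 17 tested glycolysis genes 7 fell and 1 rose, and in TPM as deposited 13 fell and 1 rose. Ldha was at 63.7, 72.5 and 78 and then 20.1, 24.2 and 27.7, Eno1 at 127, 118 and 129 and then 40.1, 39.8 and 61.5, and the glucose transporter Slc2a1 at 10.0, 11.4 and 11.6 and then 3.25, 3.58 and 4.94. The exception was Hk3, the myeloid hexokinase, at 0.216, 0.216 and 0.532 and then 9.4, 8.73 and 15.1 (log2 fold change 4.77 ± 0.53).

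Genes of lipid handling went in both directions, with 3 of 13 rising and 3 falling; in TPM as deposited 2 rose and 4 fell. Beside Apoc2, the cholesterol exporter Abca1 rose by 2.34 ± 0.38 and the lipid droplet coat Plin2 from 20.2 ± 3.27 to 53.8 ± 6.07. Dgat2, an enzyme of triglyceride synthesis, was at 0.109 at 0h, 5.42, 4.1 and 5.79 at 12h and 0.0797, 0 and 0.133 at 48h, so that it was high at 12h alone, and Fabp5 fell by 1.72 ± 0.33 on the log2 scale. In eicosanoid synthesis 3 of 9 rose and 2 fell (1 fell without 12h replicate 2 or 48h replicate 1), and 1 rose and 3 fell in TPM as deposited. Alox5ap, which presents arachidonate to 5-lipoxygenase, was at 13.6, 7.48 and 15 and then 43.7, 38.4 and 54.9, and the prostaglandin reductase Ptgr1 at 16.4, 19.3 and 18.6 and then 3.09, 2.73 and 3.62. Pla2g15 rose by 1.39 ± 0.21 and Ptgs1 by 1.43 ± 0.42. The libraries of Ptgs1 overlapped, and its call was lost without 12h replicate 2 (adjusted p = 0.079), 12h replicate 3 (0.064), 48h replicate 1 (0.077), 48h replicate 3 (0.057) or replicate 3 of all time points (0.189).

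Of 81 tested cytosolic ribosomal protein genes 10 fell and none rose, with a median of -0.57, beside 10.2% of all genes tested that fell. The count was 26 without 48h replicate 3, 22 after rescaling without the 20 most abundant genes and 66 in TPM as deposited. Rpl14 was at 112, 117 and 132 and then 36, 40.9 and 46.4, Rpl3 at 22.9, 28.3 and 31.9 and then 8.69, 6.25 and 9.29, and Rpl22l1 at 2.64, 6.73 and 5.72 and then 0.43, 0.613 and 0.692. Rps2 fell by 1.55 ± 0.41, with 12h libraries from 2.59 to 9.99, and lost its call without replicate 3 of all time points (adjusted p = 0.158). Many of these genes have processed pseudogenes that can share reads. Of 13 mitochondrially encoded genes mt-Nd3 and mt-Nd1 fell, beside 10.2% of all genes tested. mt-Nd3 was at 16.8, 24.5 and 48.8 at 12h and listed at 0 in every 48h library, and also at 0 in 1 of the 0h libraries, and its call was lost without replicate 3 of all time points (adjusted p = 0.068). The call of mt-Nd1 (-1.29 ± 0.4) was lost without 12h replicate 1 (adjusted p = 0.101), 12h replicate 2 (0.079) or 48h replicate 3 (0.065).

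Structural genes were settled by 12h in part. Of 26 tested genes for actin-binding proteins and annexins 3 rose and 5 fell, beside 9.76% and 10.2% of all genes tested. Another 9, among them Actb, Vim, Lcp1 and Anxa1, were at their final level at 12h. In TPM as deposited 1 rose and 12 fell. Actg1 was at 101 at 0h, 234, 240.0 and 233 at 12h and 65.6, 66.1 and 85.6 at 48h, whereas Actb was at 1300.4 ± 157 and 1228 ± 371. Anxa2 was at 2.97, 2.79 and 3.13 at 12h and at 0.175, 0.739 and 0.519 at 48h, and Anxa3 at 4.38, 4.01 and 4.66 and then 1.2, 0.223 and 0.745, both after being listed at 0 in every 0h library. The call of Anxa3 was lost after rescaling without the 20 most abundant genes (adjusted p = 0.081). Myo1f, a myosin of leukocytes, rose by 1.83 ± 0.29. Among 7 tested granule genes Camp was the only one called under median-of-ratios scaling, beside 10.2% of all genes tested that fell. Camp, an antimicrobial peptide of neutrophil granules, was at 6.2, 7.76 and 8 and then 0.287, 0.572 and 0.665. Of the list 4 fell in TPM as deposited, and 2 when the 20 most abundant genes were left out of the scaling or without 48h replicate 3. Lyz2 and Anxa1 were at their final level at 12h. Mpo, Ctsg, Ms4a3 and Chil3 were listed at 0 in all 6 libraries.

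The B-lineage genes tested had a median log2 fold change of -2.16 at 12h against 0h and of -0.01 at 48h against 12h. Of 32 listed genes 19 passed the filter, which excludes genes that were near 0 at both 12h and 48h. Of these 19, 4 fell further and 3 rose, beside 10.2% and 9.76% of all genes tested. Another 4 (Lef1, Ebf1 and Cd79b among them) were at their final level at 12h. In TPM as deposited 2 rose and 9 fell. Vpreb3, a protein of B cell precursors, and Igll1, a surrogate light chain component of the pre-B cell receptor, fell from mean levels of 83.5 and 55.1 at 0h. Vpreb3 was at 4.62, 4.86 and 4.63 at 12h and 0.637, 0.948 and 0.665 at 48h, and Igll1 at 6.92, 9.56 and 7.74 and then 1.86, 1.34 and 1.54. Myb, a progenitor transcription factor, was at 4.41, 3.69 and 3.98 and then 0.398, 0.586 and 0.758 (log2 fold change -2.63 ± 0.18, limma adjusted p = 1.8e-06). Ighm, the μ heavy chain itself, was at 60.2 at 0h, 3.58, 4.08 and 3.47 at 12h and 16.6, 17.8 and 18 at 48h, a rise of 2.21 ± 0.1 from a 12h minimum (limma, adjusted p = 1.6e-07). Blnk and Cd72 rose by 1.5 and 1.78 and had been at 7.22 and 13.7 at 0h, above their 48h means of 5.16 and 5.52. Pax5 was at 18.5 ± 1.83, 2.6 ± 0.262 and 5.29 ± 0.741 at 0h, 12h and 48h, with a log2 difference of 0.99 ± 0.14 that did not reach the threshold of size.

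Genes were counted as already at their final level at 12h where 12h differed from 0h by the same test and the 95% confidence interval of the 48h minus 12h difference lay within 1 on the log2 scale. This held for 413 genes above 0h (4.74% of those tested) and 237 below 0h (2.72%), and both contrasts share the 12h libraries. By comparison, 1369 genes (15.7%) were above and 862 (9.89%) below 0h at 12h. With an interval within a ratio of 1.5 the counts were 96 and 47. The genes above 0h with the largest increases were myeloid: Cd14, the LPS co-receptor, was listed at 0 in every 0h library, at 39.6, 46.9 and 41.1 at 12h and at 57.7, 58.8 and 81.9 at 48h (48h minus 12h, 95% interval 0.25 to 0.99). Lyz2, lysozyme (chr10:117277331-117282321), was at 1.53, then 161, 177 and 187, then 151, 154 and 162 (interval -0.44 to 0.11). Its 12h and 48h libraries overlapped, whereas those of Cd14 did not. Fosl2, an AP-1 factor, was at 5.98, 6.83 and 6.27 at 12h and then 5.21, 5.69 and 7.24, Tlr2 at 23, 24.2 and 22.1 and then 34.1, 31.4 and 31.4, and Ncf1 at 25.8, 24 and 31.8 and then 17.5, 16.4 and 17.9. Cd14, Tlr2 and Ncf1 still differed slightly between 12h and 48h, by 0.62 ± 0.17, 0.48 ± 0.15 and -0.64 ± 0.15 (limma, adjusted p = 0.015, 0.029 and 0.0057), within the margin.

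Below 0h, genes that were near 0 at both 12h and 48h did not pass the filter. The count of genes below 0h and the ranking here therefore leave out the deepest early losses. Among the genes tested, the 5 largest decreases that were complete at 12h were those of Ptprcap, a CD45-associated protein of lymphocytes, Lef1, a Wnt-pathway transcription factor of early B cells, Osgep, an enzyme of tRNA modification, St5, and Pcna, the replication clamp. Lef1 was at 27.4, 34.4 and 31.4 at 0h, 3.27, 2.82 and 2.56 at 12h and 3.94, 3.78 and 1.53 at 48h (interval -0.72 to 0.69), with replicate 3 the lowest at 48h. Pcna was at 52.4, 56.3 and 48.4 at 0h, 6.84, 6.31 and 8.33 at 12h and 6.76, 8.02 and 5.65 at 48h (interval -0.4 to 0.25). Ptprcap was at a mean of 28.1 at 0h, at 1.88, 0.988 and 1.31 at 12h and at 1.13, 0.753 and 1.24 at 48h, and Osgep and St5 fell by 2.98 and 2.87 on the log2 scale from 0h to 12h. For all 5 the 12h and 48h libraries overlapped.

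Promoter contacts at the same time points were taken from the Promoter Capture Hi-C lists, 1 merged list per time point, so that these are counts without a test; the lists held 131598 interactions at 12h and 144072 at 48h. Over the 7347 tested genes with a start site in a bait, the mean number of listed contacts was 11.2 at 12h and 11.8 at 48h, and 44.4% of genes had more and 44.4% fewer at 48h. For the 658 late gains with a bait the mean was 12.7 at 12h and 15.7 at 48h, and 54.9% had more and 35.4% fewer. For the 777 late losses it was 11.7 and 11.1, and 38.6% had more and 49.0% fewer. The 344 genes at their final level above 0h had 13.2 and 14.2, and the 222 below 0h had 11.1 and 11.9. Single genes varied: Siglec1 had 7 and 17 contacts at 12h and 48h, Cd36 28 and 60, Ccr2 17 and 28, Mmp13 63 and 89 and Mmp12 70 and 63, while Irf7 had 11 and 3 and Grn 11 and 11.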

How the data were processed

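Total RNA of C10 cells, depleted of ribosomal RNA, was sequenced at 0h, 1h, 12h and 48h with 3 libraries each. Per the labels and the study's methods, the authors trimmed reads with Trim Galore 0.6.2, aligned them to mm10 with HISAT2 2.1.0 and deposited TPM values from RSEM on the GRCm38.96 annotation. TPM are relative to the sum of each library, so 1 abundant class lowers all other values, and they keep no depth. The values as deposited were divided by median-of-ratios factors and tested as log2(scaled TPM + 0.1) with limma 3.58.1 in R 4.3.3 (all 12 libraries in 1 model, empirical Bayes with a trend), with Benjamini-Hochberg adjustment over 8719 genes. Fold changes are on that scale, which understates changes of low genes. A gene was called when its log2 fold change passed 1 in size and its adjusted p was below 0.05. The scripts were tested on simulated data. A count test was not used because the values are TPM. For the contacts, interactions of the deposited Promoter Capture Hi-C lists were counted per gene over baits holding an annotated start site, and the scores were not used. Named genes were the 10 largest gains and losses, the 5 largest in each class at its final level at 12h, and genes of the lists; genes and lists were chosen with earlier results of these data known. Promoters came from RefSeq (GRCm38.p6) and motifs were searched as exact letters on both strands. Alternatives covered scaling, pseudocount, filter, model and single libraries. Some genes of the lists are not reported here by name.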

Additional observations from a re-analysis of the deposited data

How the results depend on the processing

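Under the main settings 851 genes rose, 888 fell, and 413 and 237 were at their final level at 12h above and below 0h. Late gains numbered 1325 at a mean TPM of at least 0.1, 1317 with no filter, 401 at a mean TPM of at least 5, 375 with no scaling, 1440 with no fold threshold and 316 beyond a log2 fold change of 2. Late losses numbered 523 with a pseudocount of 1, 311 at a mean TPM of at least 5, 2939 with no scaling, 1660 with no fold threshold and 225 beyond 2. Genes final above 0h numbered 254 at a mean TPM of at least 5 and 96 with an interval within a ratio of 1.5, and those below 0h 53 at a mean TPM of at least 5, 41 with no scaling, 136 after rescaling without the 20 most abundant genes and 47 within a ratio of 1.5. Leaving out each library in turn gave 778 to 923 gains, 784 to 1096 losses, and 337 to 389 and 214 to 249 genes at their final level. An alternative chosen after seeing the data, without replicate 3 of all time points, gave 811, 893, 339 and 199. With the replicate number as a block the counts were 852, 908, 482 and 257. Deviations of same-numbered 12h and 48h libraries correlated at 0.193, 0.035 and 0.314. Between 12h replicate 1 and 48h replicate 2 the value was 0.176, and between 12h replicate 2 and 48h replicate 1 it was 0.051. Between 12h replicate 3 and 48h replicates 1 and 2 the values were -0.214 and -0.185. Between 12h replicates 1 and 2 and 48h replicate 3 they were -0.290 and -0.068. Deviations from the mean of a time point cancel over its libraries, so these negative values are tied to the positive ones and add no separate support. The replicate 3 libraries of 12h and 48h shared a deviation, and the main model held no term for the replicate number. No named gene reversed its direction, and in 61 cases over all alternatives the adjusted p of a named gene moved out of the threshold. TPM keep no depth, so no counting error could be given.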

Other observations

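Further groups were chosen after their values were seen and are given as description. Of 24 genes of MHC class I presentation 23 were tested, 14 rose and none fell (12 and 2 in TPM as deposited), with a median log2 fold change of 1.74 at 48h against 12h. B2m, the light chain, was at 172, 162 and 113 scaled TPM at 12h and 1406, 1368 and 718 at 48h, with replicate 3 the lowest, and H2-T24, a non-classical class I gene, at 1.24, 1.53 and 1.51 and then 48.8, 52.3 and 45.2. All 13 tested members of the Ifi200 family of DNA sensors rose (median 4.06; 11 in TPM as deposited), including Ifi202b, at 3.44, 3.53 and 1.88 and then 167, 176 and 101. All 7 tested schlafen genes rose (median 3.71; 6 in TPM as deposited): Slfn5 was at 7.39, 7.97 and 7.26 and then 110.4, 113 and 80.7, and Slfn4 at 0.0656, 0.0629 and 0.111 and then 13.2, 12.8 and 11.1. Members of these families resemble each other, and reads may be shared between them.

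Genes of several biosynthetic groups fell. All 10 tested genes of serine and one-carbon metabolism fell (median -2.71), with Shmt2, the mitochondrial serine hydroxymethyltransferase, at 21.2, 24.7 and 20.1 and then 0.956, 1.14 and 2.14, and Psat1 at 19.2, 24.3 and 17 and then 2.76, 3.22 and 2.1. Of 14 tested genes of purine and pyrimidine synthesis 8 fell and 1 rose (11 fell and none rose in TPM as deposited), with Cad, which starts pyrimidine synthesis, at 3.57, 4.49 and 6.27 and then 0.0956, 0.39 and 1.21. Of 25 tested ribosome biogenesis genes 17 fell and none rose (median -1.52). Fbl, the nucleolar methyltransferase fibrillarin, was at 6.37, 6.65 and 6.64 and then 0.159, 0.655 and 3.25, with replicate 3 well above the others at 48h. Of 16 tested genes of mitochondrial protein import 6 fell and none rose, while 9 fell without 48h replicate 3, 4 without replicate 3 of all time points and 12 in TPM as deposited. Timm17a was at 5.79, 6.7 and 6.68 and then 0.478, 1.67 and 2.3.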
